A study of Rattus norvegicus with 6 samples.

Results

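The lipogenesis genes are the enzymes and regulators with which the liver makes fatty acids from carbohydrate, and 10 symbols were listed for them. They were chosen by symbol in the table of expressed genes that the authors deposited, where 8 of the 10 symbols were found, for 9 of the 19616 genes in the table, since Elovl6 stood under 2 Ensembl identifiers. Scd was found only under its older symbol Scd1, according to the RefSeq gene table, so its values are given beside the 9 genes and not counted with them. The expression of Mlxipl, which encodes the carbohydrate-sensing factor ChREBP, was not analysed here.

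The study compared fibrotic with control liver of male SD rats by RNA sequencing after removal of ribosomal RNA, with 1 library per rat and 3 rats in each group. The FL rats (FL2, FL5 and FL12) received CCl4, a solvent that injures hepatocytes, mixed with olive oil, as intraperitoneal injections of 2 mL/kg given 2 times per week over 5 weeks. The CL rats (CL5, CL6 and CL7) received olive oil alone in the same volume. The labels class the CL livers as normal and the FL livers as fibrosis, and the age of the rats is not given in the sources used here. Values are FPKM, which relate the fragments of a gene to the length of its transcript and to all mapped fragments of the library, and groups of values follow the order CL5, CL6, CL7 and then FL2, FL5, FL12.

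Lipogenesis begins in the cytosol of the hepatocyte, where citrate exported from mitochondria is cleaved to acetyl-CoA, carboxylated to malonyl-CoA and joined by fatty acid synthase into palmitate at the expense of NADPH. Palmitate is then elongated and desaturated before it enters triglycerides, phospholipids and cholesteryl esters. In liver, insulin acts on this pathway through SREBP-1c, a product of Srebf1, and carbohydrate through ChREBP, so most of its genes are higher in the fed than in the fasted state. Whether the rats were fed or fasted before the livers were taken is not given in the sources used here.

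No lipogenesis gene passed the test between the FL and CL groups, although all 8 genes tested had a higher mean on the log2 scale in the FL rats. The 0 genes higher and 0 genes lower of the 8 tested stand beside 16.9% and 1.94% of the 14864 genes tested that were higher and lower (limma on log2(FPKM + 0.1), Benjamini-Hochberg adjusted p under 0.05). At an unadjusted p under 0.05 in the same fit 2 of the 8 were higher, Elovl6 and Me1, and 0 lower, beside 31.5% and 4.04% of all genes tested. These were also the 2 genes whose FL values all lay above the CL values, where 35.7% of all genes tested did so, and 0 of the 8 had all FL values below the CL values, against 4.78% of all genes. The median log2 difference (FL minus CL) was 0.59 over the 8 genes and 0.29 over all genes tested, of which 77.9% were positive.

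Differences depend on how the rats are put on a common scale, and the deposited FPKM were used without further scaling. The median difference of all genes moved from 0.29 to 0.08 with median scaling, to −0.04 with quantile normalization and to 0.48 when each rat was divided by its sum of FPKM, and the median of the 8 genes was 0.37, 0.51 and 0.77 under these settings. The 2518 genes higher and 288 lower became 1301 and 533 with median scaling, 778 and 536 with quantile normalization, and 3948 and 191 with scaling to the sum. The lipogenesis count was 0 in both directions under each of these scalings. In bulk liver, fewer cells of a type and less RNA per cell cannot be told apart.

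**Figure D1:**
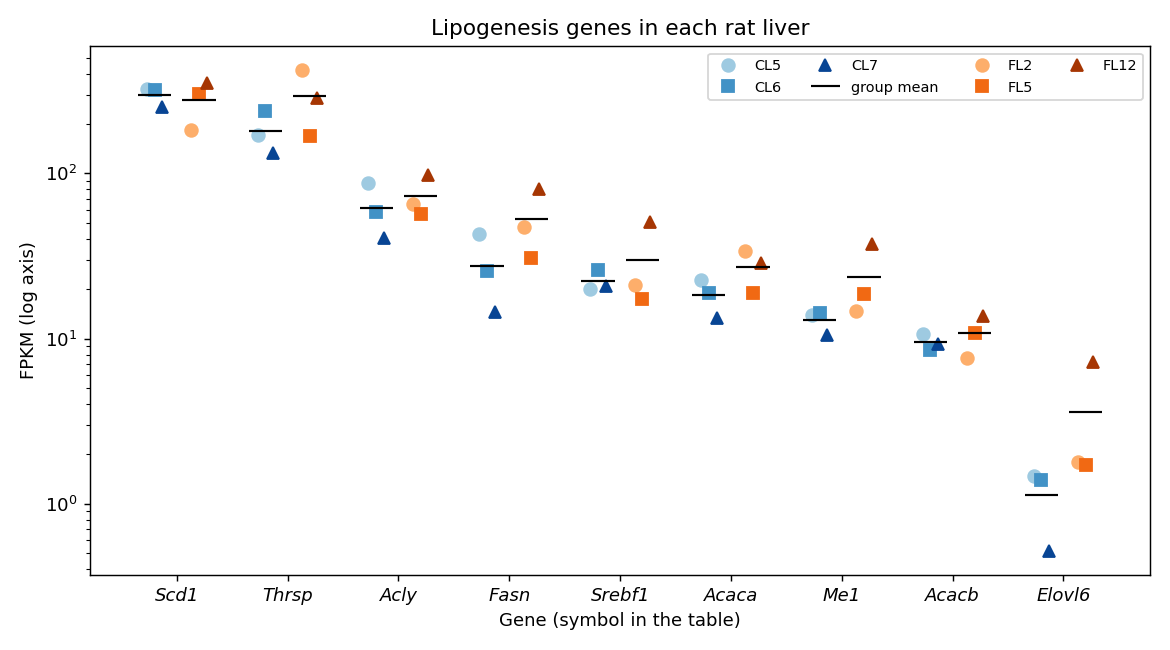
FPKM on a log axis of the 8 lipogenesis genes tested and of Scd1 in each liver, with blue symbols for the CL rats, orange and brown symbols for the FL rats and a black line at each group mean (3 rats). The groups overlap for all genes shown except Elovl6 and Me1, and FL12 has the highest value in 7 of the 9 genes.

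Srebf1 encodes SREBP-1a and SREBP-1c, the latter the main factor that carries the insulin signal to the promoters of lipogenic enzymes, and the gene-level value does not separate the isoforms. Its level was 20.1, 25.8 and 20.9 FPKM in the CL rats and 21.2, 17.4 and 50.5 FPKM in the FL rats. FL12 stood apart at the top, FL5 was the lowest of all 6 rats, and the groups overlapped. The log2 difference of 0.26 (SE 0.36, 95% interval −0.56 to 1.08) had an adjusted p of 0.628, and without FL12 it was −0.20 (adjusted p = 0.429, where the alternatives ranged from 0.335 to 0.961).

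Thrsp, or Spot 14, is a small nuclear and cytosolic protein that responds to thyroid hormone and carbohydrate and accompanies lipogenic enzymes. It was among the most abundant of the genes, at 169.6, 239 and 133 FPKM in the CL rats and 420.4, 169 and 288 FPKM in the FL rats. Here FL2 was the highest rat and FL12 the next, while FL5 lay among the CL rats, just below CL5. The difference of 0.64 on the log2 scale (SE 0.35, 1.56-fold) did not pass the test (adjusted p = 0.223, 0.0691 to 0.506 over the alternatives). It was 0.33 without FL2 and 0.99 without FL5.

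ATP citrate lyase, encoded by Acly, releases the acetyl-CoA from which fatty acids and cholesterol are built. Acly stood at 87.6, 58.3 and 40.4 FPKM in the CL rats and at 64.9, 56.4 and 97.1 FPKM in the FL rats. The groups overlapped almost completely, with FL12 highest, CL5 next and CL7 lowest. The log2 difference was 0.26 (SE 0.30, adjusted p = 0.565), and it was −0.01 without CL7 (adjusted p = 0.98, with a range of 0.224 to 0.98 over the alternatives).

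Me1 encodes cytosolic malic enzyme, which makes NADPH for fatty acid synthase. The CL rats had 13.8, 14.3 and 10.6 FPKM and the FL rats 14.8, 18.7 and 37.5 FPKM. All FL values were above all CL values, but FL2 exceeded CL6 only slightly and FL12 was far above the other rats. The CL mean was 12.9 ± 2.02 FPKM and the FL mean 23.6 ± 12.1 FPKM (SD, n = 3 each). The log2 difference was 0.76 (SE 0.32, 95% interval 0.04 to 1.49, 1.70-fold) with an adjusted p of 0.126. Without FL2 the difference was 1.04 with an adjusted p of 0.0485, while over all alternatives the adjusted p lay between 0.0485 and 0.321, and without FL12 the difference was 0.38.

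Acaca and Acacb encode the acetyl-CoA carboxylases, of which the product of Acaca makes malonyl-CoA for synthesis in the cytosol and that of Acacb makes it at the mitochondrial surface, where malonyl-CoA restrains the import of fatty acids for oxidation. Acaca was at 22.8, 18.9 and 13.4 FPKM in the CL rats and 33.7, 18.8 and 28.7 FPKM in the FL rats. FL2 and FL12 were above every CL rat, and FL5 lay between CL7 and CL6. The difference was 0.55 (log2, SE 0.26, 95% interval −0.04 to 1.14, 1.46-fold), with an adjusted p of 0.165. It was 0.34 without CL7 and 0.32 with median scaling, and the adjusted p over the alternatives ran from 0.0508 (scaling to the sum) to 0.458 (median scaling). Acacb was lower than Acaca in every rat, at 10.6, 8.57 and 9.21 FPKM in the CL rats and 7.65, 10.8 and 13.7 FPKM in the FL rats. FL2 had the lowest Acacb value and FL12 the highest, so the FL rats spanned the whole CL range. Its difference of 0.14 (log2, SE 0.21, adjusted p = 0.648) turned to −0.08 with median scaling or quantile normalization and to −0.05 without FL12.

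Fasn encodes fatty acid synthase, the enzyme that builds palmitate. Its values were 42.7, 25.5 and 14.6 FPKM in the CL rats and 47.5, 30.9 and 80.2 FPKM in the FL rats, with group means of 27.6 ± 14.2 and 52.9 ± 25.1 FPKM (SD, n = 3 each). FL12 and FL2 were the 2 highest rats, but CL5 was above FL5, and CL7 was the lowest. The 1.95-fold difference (0.96 on the log2 scale, SE 0.43, 95% interval −0.04 to 1.96) did not pass the test (adjusted p = 0.155, 0.0719 to 0.411 over the alternatives). Without CL7 it was 0.57 and without FL12 0.61.

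Elovl6 elongates palmitate to stearate and had the largest difference of the genes. The abundant of its 2 identifiers had 1.47, 1.39 and 0.52 FPKM in the CL rats and 1.78, 1.71 and 7.24 FPKM in the FL rats. The lowest FL values, those of FL5 and FL2, were close to CL5 and CL6, while FL12 was far above all other rats and CL7 far below. The log2 difference of 1.37 (SE 0.58, 95% interval 0.02 to 2.71, 2.58-fold) had an adjusted p of 0.136 and was 0.70 without FL12 (adjusted p = 0.318, range over the alternatives 0.0714 to 0.364). The other identifier stayed between 0 and 0.21 FPKM in the 6 rats, with a mean of 0.0817 FPKM that is under the limit of 0.1 FPKM for a test. For both identifiers, only reads placed at a single position were counted.

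Scd1 encodes stearoyl-CoA desaturase, which introduces the double bond of oleate. Its values were 322, 320.0 and 252 FPKM in the CL rats and 182, 302 and 353 FPKM in the FL rats. It had the highest mean of these genes over the 6 rats, but in the FL rats the mean of Thrsp was higher (292 against 279 FPKM). FL2 was below every CL rat, FL12 above every CL rat and FL5 within the CL range. The log2 difference was −0.14 (SE 0.26, 95% interval −0.74 to 0.46, adjusted p = 0.731), and it was 0.14 without FL2 and 0.04 with scaling to the sum.

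**Figure D2:**
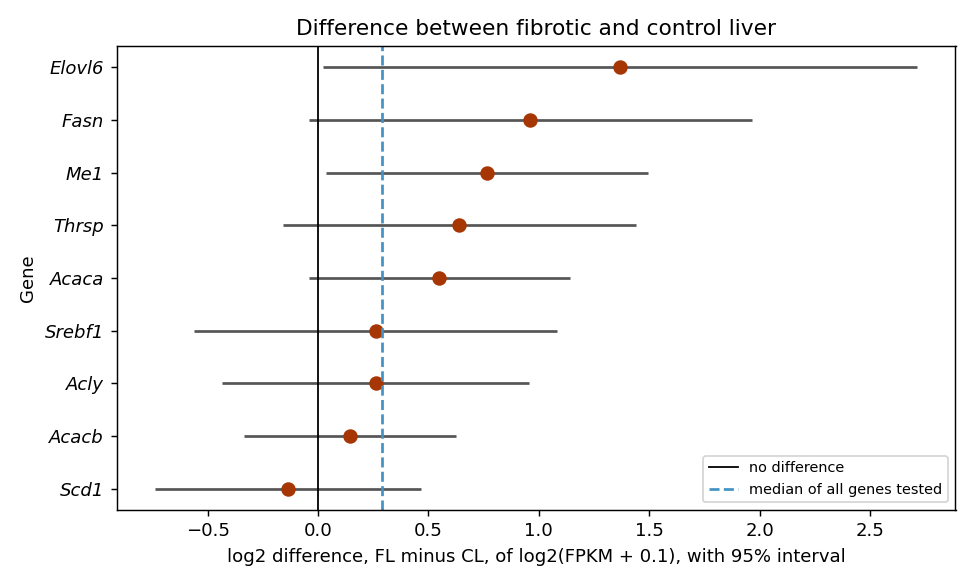
Log2 difference (FL minus CL) of log2(FPKM + 0.1) for the 8 lipogenesis genes tested and for Scd1, with 95% intervals from limma, a black line at 0 and a dashed line at the median of all genes tested (0.29). The intervals of Elovl6 and Me1 lie above 0 before adjustment over all genes, and those of the other genes include 0.

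Expression levels are per length of transcript, so the genes can be placed in order by their mean FPKM over the 6 rats. The order was Scd1 (289 FPKM), Thrsp (236), Acly (67.5), Fasn (40.2), Srebf1 (26.00), Acaca (22.7), Me1 (18.3), Acacb (10.1) and Elovl6 (2.35). Neighbours in this order had overlapping ranges over the rats except for Thrsp and Acly, and for Acacb and Elovl6.

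The spread between rats of the same group was large for most of these genes. Among 10535 genes whose mean reached 1 FPKM, the median SD of log2 values was 0.16 in the CL rats and 0.20 in the FL rats. The SD of Fasn was 0.77 and 0.69, higher than in 98.1% and 94.9% of those genes, and that of Elovl6 was 0.75 and 1.15. Srebf1, Me1 and Acacb were close in the 3 CL rats, with an SD of 0.19, 0.24 and 0.16, but not in the FL rats, with 0.81, 0.70 and 0.42. FL12 had the highest value of the 6 rats in 7 of 9 genes (the 8 tested and Scd1), and FL2 in the other 2, Thrsp and Acaca. CL7 had the lowest value in 6, FL2 in 2 (Acacb and Scd1) and FL5 in 1 (Srebf1). The median position of the 9 genes, as log2 relative to the CL mean, was 0.17 in CL5, 0.11 in CL6, −0.40 in CL7, 0.21 in FL2, 0.07 in FL5 and 0.71 in FL12. By this measure FL2 and FL5 lay close to CL5 and CL6, with FL12 above and CL7 below them. The same median over all genes tested was 0.001, 0.05 and −0.05 in the CL rats and 0.20, 0.33 and 0.35 in the FL rats. Set against it, the median of the 9 genes was near that of all genes in FL2, above it in FL12 and below it in FL5 and CL7.

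Ratios of genes within a rat do not depend on a factor that multiplies all values of the rat, and 7 of them were compared by exact permutation tests (two-sided), for which 3 against 3 rats allow no p under 0.1. The ratio of Acly to Fasn was 2.05, 2.29 and 2.78 in the CL rats and 1.37, 1.83 and 1.21 in the FL rats. It was lower in every FL rat than in every CL rat, by −0.70 on the log2 scale, with the smallest p the exact test allows (p = 0.1, 0.7 after adjustment over the 7 ratios). The ratio of Scd1 to Fasn was 7.55, 12.5 and 17.3 in the CL rats and 3.84, 9.80 and 4.40 in the FL rats. These values overlapped, since FL5 lay above CL5, and the log2 difference was −1.10 (exact permutation p = 0.2). The other 5 ratios overlapped between the groups. Their log2 differences were −0.40 for Acacb to Acaca, 0.41 for Elovl6 to Fasn, −0.20 for Me1 to Fasn, −0.32 for Thrsp to Fasn and 0.05 for Srebf1 to Srebf2, with exact permutation p-values from 0.4 to 1. Some of these differences depended on which rat was left out, as Acacb to Acaca was −0.0038 without FL2 and −0.67 without FL5, and Thrsp to Fasn was −0.0026 without FL12 and −0.73 without CL5. Quantile normalization, which can change ratios within a rat and was run for them after the data were seen, kept the sign of all 7 but moved Elovl6 to Fasn to 0.06, Thrsp to Fasn to −0.16 and Acly to Fasn to −0.65. It gave −0.87 for Scd1 to Fasn, −0.48 for Acacb to Acaca, −0.24 for Me1 to Fasn and 0.05 for Srebf1 to Srebf2.

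The profile of Fasn over the 6 rats was compared with those of 10526 other genes of at least 1 FPKM by the root mean square difference of centred log2 values, as a description without a test. The nearest were Ccr2 (0.18), Serhl2 (0.31), Rps29 (0.32), Mrpl50 (0.34) and Coq7 (0.34), all of them at a mean level far below that of Fasn. Ccr2, a chemokine receptor of monocytes, had 2.41, 1.44 and 0.65 FPKM in the CL rats and 2.79, 1.69 and 3.36 FPKM in the FL rats, the same order of rats as Fasn. Of the lipogenesis genes, Acly (0.41), Acaca (0.43), Elovl6 (0.45) and Me1 (0.45) were near to Fasn, with at most 0.751% of those genes nearer than each, and Thrsp (0.58), Srebf1 (0.61), Acacb (0.67) and Scd1 (0.77) were farther away, with 7.89%, 13.1%, 32.0% and 67.3% nearer.

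Among 12 genes tested that supply carbon and NADPH to the pathway, 1 rose and 1 fell, where 16.9% and 1.94% of all genes did so, and the median log2 difference was 0.09 beside 0.29. G6pdx, the rat symbol of glucose-6-phosphate dehydrogenase, which opens the pentose phosphate pathway and makes NADPH, had 6.29, 6.41 and 5.03 FPKM in the CL rats and 9.53, 12.1 and 11.2 FPKM in the FL rats. Every FL rat was above every CL rat, and the 1.84-fold increase (log2 0.88, SE 0.15, adjusted p = 0.00882) passed in all 15 alternatives run. The count of the list that fell was 0 without CL5, CL6, CL7, FL2 or FL5 and stayed at 1 without FL12. Idh1, the most abundant of the list, was at 132, 121 and 106 FPKM in the CL rats and 118, 129 and 126 FPKM in the FL rats (adjusted p = 0.761). Pgd and Pdha1 of this list were not analysed here.

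Of 23 regulators of SREBP-1c and ChREBP, 1 rose and 1 fell, beside 16.9% and 1.94% of all genes, with a median log2 difference of 0.10. The count that rose was 4 with scaling to the sum and 0 with median scaling or quantile normalization. Insig2 encodes a protein of the endoplasmic reticulum that holds back the complex of SCAP and SREBP, and its liver transcript is known to fall with insulin. It had 157, 90.8 and 100.5 FPKM in the CL rats and 30.3, 36.8 and 18.98 FPKM in the FL rats, with all FL rats far below the CL rats. The 4.06-fold decrease (log2 −2.02, SE 0.28, adjusted p = 0.00497) passed in all 15 alternatives. Insig1, its sterol-regulated relative, had 95.2, 45.6 and 29.1 FPKM in the CL rats and 52.1, 62.9 and 31.1 FPKM in the FL rats, which overlapped (adjusted p = 0.88). Ppargc1b, a coactivator of SREBP and other factors, rose from 0.77, 0.92 and 1.61 FPKM to 1.72, 2.55 and 2.39 FPKM (log2 0.99, SE 0.29, adjusted p = 0.0479). The rise of Ppargc1b passed in 7 of 15 alternatives (adjusted p from 0.0274 to 0.264) and was lost without CL5 (0.134), CL6 (0.129), FL5 (0.154) or FL12 (0.136), with median scaling (0.126) or quantile normalization (0.264, log2 0.52), without a filter (0.0788) and with no trend (0.0709). Mid1ip1, a relative of Thrsp that binds acetyl-CoA carboxylase, had 17.1, 11.99 and 9.74 FPKM in the CL rats and 24.7, 14.5 and 23.3 FPKM in the FL rats (adjusted p = 0.101) and was picked here after its values were seen. Xbp1, the most abundant of the list, was at 75.5, 134 and 151 FPKM in the CL and 92.5, 94.1 and 58.1 FPKM in the FL rats (adjusted p = 0.23).

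Of 12 genes tested that elongate and desaturate fatty acids beyond Elovl6 and Scd1, 3 rose and 1 fell, where 16.9% and 1.94% of all genes did so, and the median log2 difference was 0.05. Elovl5, an elongase of polyunsaturated fatty acids, had 112, 95.2 and 99.4 FPKM in the CL rats and 49.1, 70.6 and 61.2 FPKM in the FL rats, without overlap (log2 −0.77, SE 0.16, adjusted p = 0.016). Fads2, the delta-6 desaturase and the most abundant of the list, rose from 216, 163 and 145 FPKM to 237, 356 and 293 FPKM (log2 0.76, SE 0.22, adjusted p = 0.0457). The FL rats were also above the CL rats for Scd2, a desaturase known from brain and other tissues outside the hepatocyte, with 2.17, 3.11 and 2.55 FPKM in the CL and 3.41, 7.45 and 6.77 FPKM in the FL rats (log2 1.08, SE 0.29, adjusted p = 0.0396), and for Elovl1, an elongase of very long saturated chains, with 7.92, 5.97 and 6.21 FPKM in the CL and 9.45, 9.53 and 10.6 FPKM in the FL rats (log2 0.56, SE 0.14, adjusted p = 0.0318). In the fits that left out a rat, 3 genes rose without FL2, 2 without CL5 and 0 without CL6, CL7, FL5 or FL12, and 0 rose with median scaling or quantile normalization. The fall of Elovl5 passed in 12 of 15 alternatives and was lost without CL5 (0.057) or CL7 (0.0583) and with scaling to the sum (0.0544), in a range of 0.00903 to 0.0583. Elovl3 and Scd4 were not analysed here.

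In triglyceride synthesis, which takes up the products of lipogenesis, 5 of 13 genes tested rose and 2 fell, beside 16.9% and 1.94% of all genes, with a median log2 difference of 0.40. Lpin1, a phosphatidate phosphatase, had 38.3, 36.6 and 40.9 FPKM in the CL rats and 21.9, 22.4 and 20.8 FPKM in the FL rats. The FL values were tightly grouped below the CL values (log2 −0.83, SE 0.10, adjusted p = 0.00414). Agpat1, an acyltransferase that makes phosphatidate, was low in both groups but rose from 0.59, 0.87 and 0.62 FPKM to 1.76, 2.18 and 1.89 FPKM (log2 1.38, SE 0.22, adjusted p = 0.00686). The changes of Lpin1 and Agpat1 passed in all 15 alternatives. Agpat9, an older symbol of the glycerol-3-phosphate acyltransferase Gpat3, had 0.01, 0.03 and 0.09 FPKM in the CL rats and 0.25, 1.51 and 0.67 FPKM in the FL rats (log2 2.44, adjusted p = 0.0249). At these low values the size rests on the pseudocount, with 0.74 (adjusted p = 0.0616) for 1 and 3.90 for 0.01, and the call passed in 7 of 14 alternatives. It was lost with a pseudocount of 1, with quantile normalization (0.0693) and without each rat other than FL2. Its relative Agpat6, now called Gpat4, was far more abundant and went the other way, from 22.7, 27.3 and 23.02 FPKM to 12.7, 16.4 and 19.5 FPKM (log2 −0.60, adjusted p = 0.0446). The other genes that rose were Agpat3 (log2 0.56, adjusted p = 0.0185), Agpat5 (0.78, 0.0468) and Lpin3 (0.51, 0.04). With 1 rat left out, 5 genes rose without FL2, 2 without CL7 and 1 without CL5, CL6, FL5 or FL12, and 2 rose with median scaling and 1 with quantile normalization. The call of Agpat6 was lost without each rat other than FL12, with adjusted p-values of 0.0634 to 0.131 in a range of 0.0136 to 0.133 over the alternatives. Dgat2, the most abundant of the list, stood at 60.7, 48.2 and 45.6 FPKM in the CL rats and 54.7, 38.7 and 69.8 FPKM in the FL rats, with FL12 highest and FL5 lowest as in Fasn among the FL rats (adjusted p = 0.89).

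Hepatocytes are the main source of lipogenesis transcripts in liver, and the markers of hepatocytes were high in every library. Beside 16.9% higher and 1.94% lower of all genes, 0 of 12 hepatocyte markers passed the test in either direction, with a median log2 difference of 0.01. One of them, Apoa1, rose in 5 of 15 alternatives, namely with a mean of 1 FPKM or more, no trend, a robust prior, scaling to the sum or without FL2. By overlap, 4 of the 12 (Alb, Apob, Ttr and Hnf4a) had all FL values below the CL values, beside 4.78% of all genes, and 2 (Apoa1 and Tf) had them above, beside 35.7%. The summed level of the 12 was 55384, 52796 and 53416 FPKM in the CL rats and 47696, 47542 and 46581 FPKM in the FL rats, most of it Alb, at 33392, 31431 and 31992 FPKM in the CL and 24149, 25052 and 25209 FPKM in the FL rats. The sum was lower in every FL rat. The variance fitted for the most abundant genes is wide (SE 0.98 for Alb, far above the spread of its values within a group). With this SE the test could not call a fall of the size seen in Alb, so the lack of a call does not show that Alb was unchanged. When each rat was scaled to these markers, the lipogenesis genes gave 0 calls and a median log2 difference of 0.61. The adipocyte markers differed in level. Plin1 was at 0 in all rats but FL5 (0.01 FPKM), and Adipoq was at 0.65, 0.44 and 0.39 FPKM in the CL and 0.42, 0.74 and 0.34 FPKM in the FL rats. Cidec was at 10.5, 13.4 and 11.7 FPKM in the CL and 16.6, 13.5 and 12.1 FPKM in the FL rats. Cfd was at 5.99, 5.59 and 5.58 FPKM in the CL and 10.03, 5.67 and 7.04 FPKM in the FL rats. Of 7 adipocyte markers tested 1 rose and 0 fell, beside 16.9% and 1.94% of all genes. Fabp4, which macrophages and endothelial cells also express, rose from 0.90, 1.85 and 1.48 to 7.27, 20.1 and 10.4 FPKM (log2 3.00, adjusted p = 0.00425). The list, in which Cidec was the most abundant, summed to 22.8, 29.6 and 22.96 FPKM in the CL rats and 38.5, 45.99 and 34.9 FPKM in the FL rats. These sums include Fabp4, which made up part of the higher values of the FL rats.

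The counts of markers of other liver cell types that rose stand beside 16.9% of all genes tested. Of 9 markers of stellate cells or myofibroblasts tested, 5 rose (Col1a1, Col3a1, Des, Pdgfrb and Rgs5), and the list, led by Col3a1, summed to 90.1, 91.8 and 84.02 FPKM in the CL rats and 223, 573 and 506 FPKM in the FL rats. Of 10 macrophage markers, 5 rose (Lyz2, Cd68, Marco, Csf1r and C1qa), with sums of 174, 160.4 and 167 FPKM in the CL and 375, 373 and 231 FPKM in the FL rats and Clec4f the most abundant. FL5 was the highest of all rats in the stellate sum and the lowest FL rat in 6 of these 9 lipogenesis genes. FL12 was the next in the stellate sum and the highest of all rats in 7 of the 9 genes. FL2, the lowest FL rat in that sum, was the highest of all rats in the other 2. In the macrophage sum FL12 was the lowest FL rat. Of 8 cholangiocyte markers 1 rose, Spp1, which macrophages and stellate cells also make, with sums of 6.19, 10.8 and 6.51 FPKM in the CL and 13.1, 69.2 and 43.4 FPKM in the FL rats. Of 7 endothelial markers 2 rose, Stab2 and Vwf, with sums of 79.3, 76.8 and 69.3 FPKM in the CL and 93.2, 80.4 and 88.8 FPKM in the FL rats, of which Kdr was the most abundant. Of 6 lymphocyte markers tested 1 rose, Cd4, which rat macrophages also carry, with sums of 12.1, 9.89 and 10.7 FPKM in the CL and 22.1, 29.5 and 23.3 FPKM in the FL rats. When each rat was left out in turn, the counts that rose were 5 to 7 for the stellate list, 4 to 8 for macrophages (8 without FL12), 0 to 2 for endothelial cells (0 without CL7), 0 to 2 for cholangiocytes (0 without CL7, FL5 or FL12) and 1 or 2 for lymphocytes. Scaling moved them too. For the stellate, macrophage, cholangiocyte, endothelial and lymphocyte lists in turn, 8, 9, 2, 3 and 2 rose with scaling to the sum, and 5, 4, 1, 1 and 1 rose with median scaling and with quantile normalization. The part of the mix of cells in the values of the lipogenesis genes was not tested.

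Clock genes, whose products give many lipogenic genes a daily rhythm, had 9 of 15 that rose and 4 that fell, beside 16.9% and 1.94% of all genes, with a median log2 difference of 1.27. Dbp, an output gene of the clock, had 0.46, 0.91 and 0.81 FPKM in the CL rats and 25.6, 27.1 and 31.8 FPKM in the FL rats (log2 5.13, SE 0.23, adjusted p = 0.000126). Arntl, which encodes the activator BMAL1, had 12.4, 11.6 and 10.7 FPKM in the CL rats and 3.71, 3.82 and 2.88 FPKM in the FL rats (log2 −1.72, SE 0.15, adjusted p = 0.00164). Nr1d1, encoding the repressor REV-ERB alpha that acts on lipid genes, rose from 6.38, 2.72 and 3.45 to 25.3, 32.98 and 15.7 FPKM (adjusted p = 0.00491). The others that rose were Per2, Per3, Nr1d2, Tef, Hlf, Ciart and Bhlhe41, and Npas2, Cry1 and Nfil3 fell with Arntl. Leaving out each rat in turn, 8 or 9 rose and 3 or 4 fell. The time of day at which the livers were taken is likewise not given in the sources used here. The part of the clock in the lipogenesis values was not tested.

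Promoter sequences were available from RefSeq (build GRCr8) for 7 of the 10 symbols, Acacb, Acly, Srebf1, Me1, Thrsp, Mlxipl and Scd, each as a window of 300 bases around the start of the gene. Fasn, Acaca and Elovl6 are named only. Both strands were searched for the sterol regulatory element TCACNCCAC, the E-box CACGTG, a pair of CACGNG elements 5 bases apart (a form that can include CACGTG), the CCAAT box CCAAT and the GC box GGGCGG. The sterol regulatory element was in 0 of the 7 windows and in 1.12% of 33465 rat promoters of the same length, the E-box in 0 of 7 and 6.42%, and the pair in 0 of 7 and 0.0717%. The CCAAT box was in 5 of 7 and 37.5% of all, and the GC box in 4 of 7 and 33.1%. These matches describe letters in 1 window per gene. The windows of Srebf1 (chr10:45518961-45519260, minus strand), Acly (chr10:85963582-85963881, minus strand) and Me1 (chr8:96540195-96540494, minus strand) are shown because they belong to the regulator, to the gene of the ratio without overlap and to a gene whose groups did not overlap. They are written 5′ to 3′ along the gene, with CCAAT boxes and GC boxes of either strand in capitals.
Srebf1: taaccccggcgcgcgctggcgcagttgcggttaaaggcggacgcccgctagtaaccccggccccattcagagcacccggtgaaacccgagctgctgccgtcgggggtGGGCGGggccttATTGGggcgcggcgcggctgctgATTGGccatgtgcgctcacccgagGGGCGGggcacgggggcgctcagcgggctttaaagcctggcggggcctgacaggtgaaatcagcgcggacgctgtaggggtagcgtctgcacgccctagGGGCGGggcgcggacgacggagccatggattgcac
Acly: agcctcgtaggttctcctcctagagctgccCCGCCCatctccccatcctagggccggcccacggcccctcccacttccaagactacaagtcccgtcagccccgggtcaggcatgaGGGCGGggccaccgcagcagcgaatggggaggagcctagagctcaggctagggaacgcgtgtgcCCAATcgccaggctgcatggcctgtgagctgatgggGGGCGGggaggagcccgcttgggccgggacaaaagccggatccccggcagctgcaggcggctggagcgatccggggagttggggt
Me1: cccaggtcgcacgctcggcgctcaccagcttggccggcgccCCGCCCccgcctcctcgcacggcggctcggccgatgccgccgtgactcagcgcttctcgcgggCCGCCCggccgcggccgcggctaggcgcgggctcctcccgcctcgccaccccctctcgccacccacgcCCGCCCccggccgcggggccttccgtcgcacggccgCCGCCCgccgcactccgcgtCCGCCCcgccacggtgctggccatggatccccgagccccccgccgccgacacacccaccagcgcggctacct
The Srebf1 window held 2 CCAAT boxes and 3 GC boxes, the Acly window 1 and 3, and the Me1 window 0 and 5.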

How the data were processed

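The authors used FASTX-Toolkit for trimming and TopHat2 for alignment, and from reads placed at a single position they computed and deposited FPKM per gene and rat with 2 decimals, without a stated scaling between rats. The genome is named GRCh38 although the gene identifiers are those of the rat, and the annotation release is not given in the sources used here. Rats were grouped by their labels. The table holds 2 further columns of values that match no sample and were not used. The 14864 of 19616 genes whose mean reached 0.1 FPKM were compared with limma 3.58.1 in R 4.3.3 with a trended prior on log2(FPKM + 0.1), where the added 0.1 understates the change of low genes, and all adjusted p-values of genes are Benjamini-Hochberg values over these genes. Ratios within rats were compared by exact permutation tests. The procedure was tested on simulated data. Figures and motif searches used Python 3.11.15 with numpy 2.4.6, pandas 2.3.3 and matplotlib 3.10.9.

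The members and lists were chosen with earlier results of these data known. Genes named are all members, and in each other list those past the test, the most abundant and the one with the largest difference, with other list genes named where stated or as markers. Insig1 was added after its values were seen. Some list genes that this rule names are not reported here. Alternatives were other pseudocounts (1 and 0.01), no filter or a mean of 1 FPKM or more, median scaling, quantile normalization, scaling to the sum of FPKM or to hepatocyte markers, no trend, a robust prior and leaving out each rat. No pair of rats shared more than 2.54% identical values, so none was treated as a duplicate. Total read numbers were not used here, so no counting interval is given. The most frequent low value of the short U6 genes, 0.21 to 0.32 FPKM in the 6 rats, gives their relative depth only, and the spread over 3 rats is the error stated.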

Additional observations from a re-analysis of the deposited data

How the results depend on the processing

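Over 16 alternatives, Fasn, Acaca, Elovl6, Me1 and Thrsp kept a positive difference. The count of lipogenesis genes past the test stayed at 0 higher and 0 lower with other pseudocounts, filters, scalings and priors, and with 1 rat left out it was 0 to 1 higher, the 1 being Me1 without FL2, and 0 lower. Log2 differences that changed sign were those of Acacb (−0.078 with median scaling, −0.079 with quantile normalization, −0.050 without FL12), Scd1 (0.041 with scaling to the sum of FPKM, 0.14 without FL2), Acly (−0.014 without CL7) and Srebf1 (−0.20 without FL12), and the cause was not tested. With 1 rat left out these differences ranged from −0.050 to 0.37 for Acacb, −0.33 to 0.14 for Scd1, −0.014 to 0.54 for Acly and −0.20 to 0.56 for Srebf1. Among the ratios, Elovl6 to Fasn turned to −0.00386 with a pseudocount of 1, which weighs most on the low Elovl6 values. With 1 rat left out, the log2 difference of Srebf1 to Srebf2 lay between −0.41 (without FL12) and 0.31 and was −0.12 without CL5, and that of Me1 to Fasn lay between −0.52 and 0.060, with 0.060 without CL7 or FL2. The same ranges were −0.67 to −0.0038 for Acacb to Acaca, −0.73 to −0.0026 for Thrsp to Fasn, 0.099 to 0.70 for Elovl6 to Fasn, −1.52 to −0.82 for Scd1 to Fasn and −0.87 to −0.57 for Acly to Fasn. Over all genes, the counts higher and lower were 1301 and 533 with median scaling, 778 and 536 with quantile normalization and 3948 and 191 with scaling to the sum, and with 1 rat left out 898 to 3190 and 118 to 337. With scaling to hepatocyte markers, calls were counted for the lipogenesis genes only, and the ratio of Mlxipl to Srebf1 was not run. No paired analysis was run, because the rats were divided at random into separate groups and no pairs are given. The number 5 in CL5 and FL5 labels different rats. Read totals were not used here, so no counting error was attached to low values such as those of Elovl6 (mean 2.35 FPKM).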

Other observations

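Cholesterol synthesis and LDL uptake, which SREBP-2 drives from the same acetyl-CoA, had 0 of 21 genes past the limma test in either direction. Of all genes, 16.9% were higher and 1.94% lower. The median log2 difference of the list was 0.42 beside 0.29 over all genes. Hmgcs1, an early enzyme of the pathway, had 181, 95.9 and 90.8 FPKM in the CL rats and 176, 178 and 151 FPKM in the FL rats, with CL5 above all FL rats. The sum of the list was 1193, 718 and 720.1 FPKM in the CL rats and 995, 1005 and 1052 FPKM in the FL rats. Without CL5, 8 of the 21 genes were higher in the FL group, without FL2 1 was, and with scaling to the sum of FPKM 4 were, while with median scaling 1 was lower, Stard4. Over all genes tested, 1285 were higher without CL5, 3190 without FL2 and 3948 with scaling to the sum, and 533 were lower with median scaling. Hmgcs1 was picked after its values were seen.

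Genes of fasting and fatty acid oxidation were counted by Ensembl identifier, as were all genes, which gave 20 for 18 listed symbols. Of these 20, 3 were higher and 2 lower in the FL rats, beside 16.9% and 1.94% of all genes, with a median log2 difference of 0.12. Pdk4, a kinase that restrains pyruvate dehydrogenase in fasting, had 41.2, 41.6 and 35.9 FPKM in the CL rats and 23.7, 16.3 and 13.7 FPKM in the FL rats (log2 −1.17, adjusted p = 0.00861), without overlap. One of 2 identifiers of Cyp4a2, a fatty acid hydroxylase, fell from 154, 129 and 86.7 to 24.2, 40.7 and 29.2 FPKM (log2 −1.96, adjusted p = 0.00437), whereas the other had 56.02, 38.5 and 38.1 FPKM in the CL and 36.02, 46.9 and 47.6 FPKM in the FL rats. Only reads placed at a single position were counted, so reads that match both identifiers would count for neither. The falls of Pdk4 and of this Cyp4a2 identifier passed in all 15 alternatives. Fgf21, a hormone of the fasted liver, had 4.65, 1.86 and 3.11 FPKM in the CL rats and 11.4, 5.01 and 17.8 FPKM in the FL rats (log2 1.71, adjusted p = 0.0412). Cyp4a1 (log2 0.79, adjusted p = 0.0411) and Cpt2 (0.38, 0.0376), a carnitine palmitoyltransferase of mitochondria, were also higher. With 1 rat left out the count higher was 2 without CL5 or FL2, 1 without FL5 and 0 without CL6, CL7 or FL12, and it was 0 with median scaling or quantile normalization. The 2 genes higher without CL5 were other genes of the list. In that limma fit Fgf21, Cyp4a1 and Cpt2 had adjusted p-values of 0.0547, 0.0532 and 0.0981.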
